A study of Mus musculus with 12 samples.

Results

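NRF2, the transcription factor encoded by Nfe2l2, and 9 of its textbook antioxidant target genes were followed across 4 groups of mouse mammary carcinoma cells. The 10 genes were Nfe2l2, Nqo1, Hmox1, Gclc, Gclm, Txnrd1, Srxn1, Slc7a11, G6pdx and Gsr. They were taken by exact match of the gene symbol, each had 1 entry among the 40406 of the count table, and all 10 were among the 15538 genes with enough counts to be tested. The cells were 4T1, a triple-negative mammary carcinoma line from BALB/c mice, labelled knockout (KO) or wild type (WT) for integrin β3. The 4 groups were knockout-labelled cells given 10 nM docetaxel, a taxane that stabilises microtubules (KO-DTX), knockout-labelled cells given the solvent DMSO (KO-DMSO), wild-type cells given 10 nM docetaxel (WT-DTX) and wild-type cells given DMSO (WT-DMSO). Drug or solvent was present for 24 h and was followed by 48 h in medium without drug. Each group had 3 libraries, named by the submitters as biological replicates, so n = 3 for every group mean, and the libraries held between 28.7 and 40.8 M gene counts (M, mega-counts). The labels do not say how the knockout was made or whether its cells are 1 clone.

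In resting cells NRF2 is held in the cytoplasm by KEAP1, an adaptor of a CUL3 ubiquitin ligase, and is degraded. Electrophiles and oxidants modify cysteines of KEAP1, so that NRF2 accumulates, pairs with small MAF proteins and binds antioxidant response elements in the DNA near its target genes. Its targets make glutathione, reduce thioredoxin and glutathione, supply NADPH and break down heme and quinones, and many carcinomas have the pathway switched on. NRF2 is regulated largely through the stability of its protein, so the level of its mRNA is not a measure of its activity.

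The Itgb3 mRNA did not separate the genotypes under DMSO. It had 62.4, 66.7 and 65 CPM (the read count scaled by library size, with TMM factors) in the KO-DMSO libraries, against 71.4, 60.1 and 66.1 CPM in the WT-DMSO libraries. Its log2 difference was −0.03 ± 0.08 (SE, adjusted p = 0.874) under DMSO and −0.41 ± 0.08 (adjusted p = 0.00765) after docetaxel. In wild-type cells mean Itgb3 went from 65.9 CPM under DMSO to 83.1 CPM after docetaxel (log2 0.34 ± 0.08, adjusted p = 0.00856). That call was lost without WT-DMSO library 2 and KO-DTX library 3 together (adjusted p = 0.0563). In knockout-labelled cells the means were 64.7 CPM under DMSO and 62.4 CPM after docetaxel. The cells are therefore called knockout-labelled throughout, since transcript counts outside a deleted stretch check nothing about the protein. A free-text label of the first WT-DMSO library names it a knockout, while its title and genotype field say wild type. Of 81 genes at least 2-fold apart between the genotypes after docetaxel, chosen after their values were seen, 64 were nearer to wild type in that library, against 60 and 64 in the other WT-DMSO libraries and 17, 17 and 18 in the KO-DMSO libraries. The small RNA entry Gm23935 took 3.98% of the counts in the second WT-DMSO library and 1.51% in the third KO-DTX library, the highest of each group. These 2 libraries are left out together in an alternative below. The first WT-DMSO library, which that alternative keeps, had 1.62% of its counts in Gm23935, more than the third KO-DTX library. The others had between 0.137% and 0.856%. A larger share, from 7.07% in the second WT-DMSO library to 11.9% in the second KO-DTX library, went to the entry Gm26917. The summed level of 5 epithelial markers lay between 2013 and 2873 CPM in every library, while the leukocyte marker Ptprc was at or under 0.252 CPM and the 4 endothelial markers summed to at most 0.711 CPM. The 6 leukocyte markers summed to between 15.1 and 35.4 CPM, of which Cd68 had 13 to 32.9 CPM and Cd3e 1.34 to 4.23 CPM, with Lyz2 at 0 in 10 of the 12 libraries. The 5 fibroblast markers moved with the groups, summing to 12 to 14.5 CPM in KO-DTX, 14.9 to 18.6 CPM in KO-DMSO, 19.5 to 21.1 CPM in WT-DTX and 28.3 to 30.6 CPM in WT-DMSO. Of that Pdgfra had 11 to 29.7 CPM and Col1a1 0.506 to 1.99 CPM, while Col1a2, Dcn and Thy1 were at or under 0.226 CPM in every library. Whether the Pdgfra reads came from a subset of the cells, and whether that bears on the results below, was not tested.

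Sequences just upstream of the genes are shown first, because the antioxidant response element is what links these genes to NRF2. RefSeq promoter windows on GRCm38.p6, from 250 bases before to 50 bases after an annotated start, matched 7 of the 10 genes by symbol and gave 9 windows, of which Txnrd1 had 3. Hmox1, Gclc and Gsr are named only. The core of the element was searched on both strands as TGACNNNGC and as TGAGNNNGC, an AP-1 element as TGANTCA, and the composite element bound by ATF4 with C/EBP proteins as TGATGNAA. The second core form can overlap the AP-1 letters. Either core form occurred in 27.8% of all 32851 windows of the same length, TGANTCA in 7.81% and TGATGNAA in 3.97%. The 5 windows below were chosen for the genes whose values differ most in kind: Gclm and Txnrd1, which were higher after docetaxel in both genotypes, Nqo1, which was lower in knockout-labelled cells, Srxn1, whose values lay close together in all 4 groups, and Slc7a11, whose libraries were the most scattered in 3 of the 4 groups. Each is written 5′ to 3′ on the strand of its gene, and capitals mark matches to the motifs.
Gclm, chr3:122245307-122245606, plus strand: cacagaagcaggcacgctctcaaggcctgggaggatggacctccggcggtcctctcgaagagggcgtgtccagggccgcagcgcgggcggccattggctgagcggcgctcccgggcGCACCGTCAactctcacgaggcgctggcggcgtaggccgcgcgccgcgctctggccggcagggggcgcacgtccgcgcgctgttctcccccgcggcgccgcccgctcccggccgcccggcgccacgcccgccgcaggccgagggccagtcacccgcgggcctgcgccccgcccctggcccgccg
Txnrd1, chr10:82858956-82859255, plus strand: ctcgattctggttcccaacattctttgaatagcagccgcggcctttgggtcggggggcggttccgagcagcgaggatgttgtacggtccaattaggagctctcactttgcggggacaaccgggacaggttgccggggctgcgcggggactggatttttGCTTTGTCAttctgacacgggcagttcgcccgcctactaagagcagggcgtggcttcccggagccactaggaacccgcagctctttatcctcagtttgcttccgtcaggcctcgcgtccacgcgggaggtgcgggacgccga
Nqo1, chr8:107403156-107403455, minus strand: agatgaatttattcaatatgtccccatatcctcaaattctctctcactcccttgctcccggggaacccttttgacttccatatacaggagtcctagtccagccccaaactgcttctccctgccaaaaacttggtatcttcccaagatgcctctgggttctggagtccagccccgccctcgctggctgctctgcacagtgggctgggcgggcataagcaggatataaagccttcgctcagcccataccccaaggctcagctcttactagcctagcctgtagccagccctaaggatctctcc
Srxn1, chr2:152105274-152105573, plus strand: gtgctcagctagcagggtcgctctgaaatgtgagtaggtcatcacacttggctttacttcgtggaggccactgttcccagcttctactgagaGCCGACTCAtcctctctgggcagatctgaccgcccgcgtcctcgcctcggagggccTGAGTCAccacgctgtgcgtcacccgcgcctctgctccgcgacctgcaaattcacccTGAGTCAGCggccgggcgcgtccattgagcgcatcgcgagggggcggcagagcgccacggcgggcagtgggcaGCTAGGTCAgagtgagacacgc
Slc7a11, chr3:50443564-50443863, minus strand: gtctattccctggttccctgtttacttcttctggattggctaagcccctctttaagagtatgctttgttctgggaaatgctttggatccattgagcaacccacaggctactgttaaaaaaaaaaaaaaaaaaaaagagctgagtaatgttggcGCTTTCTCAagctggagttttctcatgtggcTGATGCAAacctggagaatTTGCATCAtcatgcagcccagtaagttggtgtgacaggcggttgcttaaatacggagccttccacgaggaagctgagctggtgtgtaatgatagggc

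The Gclm window held 1 match to the C form of the core, whose first base lies 134 bases before the start. The printed Txnrd1 window held 1 such match, 92 bases before its start, and the other Txnrd1 windows held no match to any of the motifs. Srxn1 held the most matches, with 1 to the C form and 2 to the G form, and with 2 AP-1 matches of which the one 45 bases before the start lies inside a G-form match. Slc7a11 held 1 G-form match 97 bases before the start and a pair of ATF4 C/EBP matches at 66 and 47 bases before it. Of the windows not printed, Nfe2l2 had a C-form match 240 bases and G6pdx one 57 bases before the start. Nqo1 held no match in its window, which says only that these letters are not within these 300 bases. The matches describe letters and are not evidence of binding.

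The 10 genes lay at very different levels. On GRCm38 with GENCODE M21, 3 of them lie on chromosome 8: Gsr at 33652523 to 33698163 and Hmox1 at 75093621 to 75100589 on the plus strand, and Nqo1 at 107388225 to 107403206 on the minus strand. Per kilobase of the union of their exons, mean CPM over the 12 libraries was highest for Gsr, at 83.1, and G6pdx, at 40.8, and lowest for Nqo1, at 4.58, and Slc7a11, at 2.05. Per kilobase of the median coding transcript the same genes stood at both ends, with 85.6 for Gsr, 64.5 for G6pdx, 4.9 for Slc7a11 and 4.58 for Nqo1. Gsr encodes glutathione reductase and G6pdx encodes glucose-6-phosphate dehydrogenase, the entry enzyme of the pentose phosphate pathway, while Nqo1 encodes a quinone reductase often used as the reporter gene of the pathway.

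**Figure D1:**
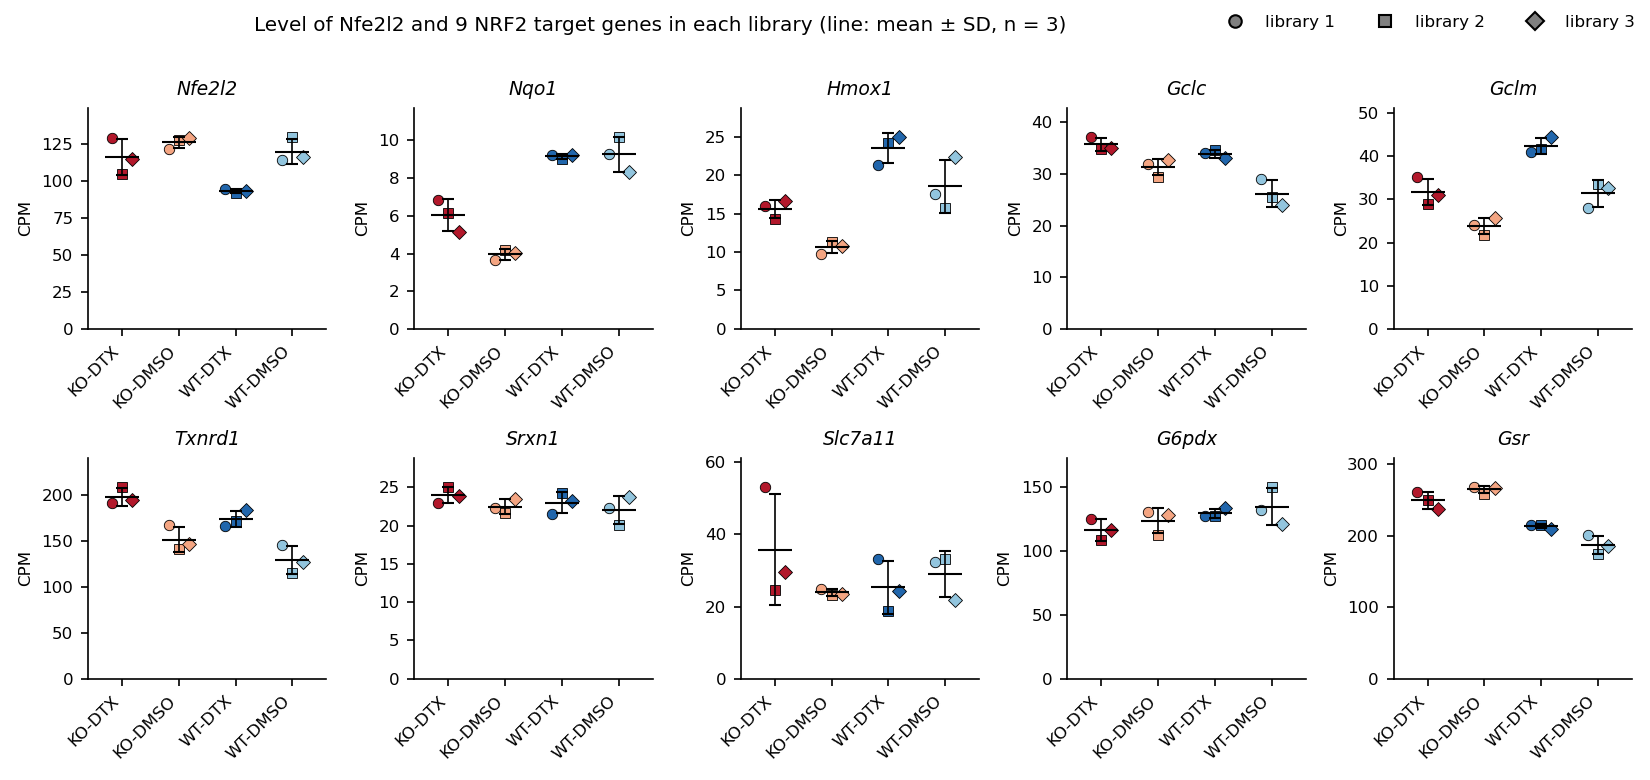
Level of each of the 10 genes, in CPM on a linear axis from 0, in the KO-DTX, KO-DMSO, WT-DTX and WT-DMSO libraries; markers are single libraries and the line is the mean ± SD (n = 3). Nqo1 and Hmox1 were lowest in KO-DMSO, Gsr was highest in both knockout-labelled groups, and the 3 KO-DTX libraries of Slc7a11 spread from 24.5 to 53.3 CPM.

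Docetaxel was followed by higher mRNA of some enzymes of the pathway in both genotypes, and the mRNA of NRF2 itself was called higher in neither. These are bulk cultures, so fewer cells of a kind and less RNA per cell cannot be told apart. In knockout-labelled cells Nqo1, Hmox1, Gclm and Txnrd1 rose, and none of the 10 fell. In wild-type cells Gclc, Gclm and Txnrd1 rose and Nfe2l2 fell. The 4 of 10 that rose in knockout-labelled cells stand beside 9.09% of the 15538 tested genes called higher there, and the absence of a fall stands beside 7% called lower (16.1% in either direction). In wild-type cells 3 of 10 rose and 1 fell, beside 14.5% called higher and 13.8% called lower (28.4% in either direction). In knockout-labelled cells all docetaxel libraries lay above all DMSO libraries for 5 of the 10 genes and below them for none, beside 19.2% and 18.5% of all tested genes (37.7% in either direction). In wild-type cells this held for 4 above and 1 below, beside 21.2% and 19.3% (40.5% in either direction). The median log2 fold change over the 10 genes was 0.286 in knockout-labelled cells, against 0.002 over all tested genes, and 0.124 in wild-type cells, against 0.017. These shares and medians describe the 10 genes, which were chosen with earlier results known, and were not tested as a group. All p-values are from edgeR's two-sided quasi-likelihood test with Benjamini-Hochberg adjustment over all tested genes, and a call is an adjusted p below 0.05.

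Nfe2l2 had 129, 105 and 115 CPM in the KO-DTX libraries, against 122, 128 and 129 CPM in the KO-DMSO libraries. In wild-type cells it had 94.5, 92.2 and 93.1 CPM after docetaxel, against 114, 130 and 116 CPM under DMSO. The wild-type groups were separate, with every WT-DTX library below every WT-DMSO library, and the knockout-labelled groups overlapped. Nfe2l2 fell by 0.36 ± 0.09 on the log2 scale in wild-type cells (SE, adjusted p = 0.00646). Its log2 change of −0.12 ± 0.08 in knockout-labelled cells did not pass (adjusted p = 0.364).

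Gclc and Gclm encode the catalytic and the modifier subunit of glutamate-cysteine ligase, which carries out the rate-limiting step of glutathione synthesis. Gclm had 35.1, 29 and 31 CPM in KO-DTX libraries, against 24, 21.8 and 25.6 CPM in KO-DMSO libraries. In wild-type cells Gclm had 40.9, 41.6 and 44.5 CPM after docetaxel, against 27.9, 33.5 and 32.7 CPM under DMSO. In both genotypes every docetaxel library lay above every DMSO library, and Gclm rose by 0.41 ± 0.10 log2 units in knockout-labelled cells (adjusted p = 0.0147) and by 0.43 ± 0.10 in wild-type cells (adjusted p = 0.00646). Gclc had 37.2, 34.9 and 35 CPM in KO-DTX libraries, against 31.9, 29.5 and 32.6 CPM in KO-DMSO libraries. In wild-type cells Gclc had 34, 34.6 and 33 CPM after docetaxel, against 29, 25.6 and 24 CPM under DMSO. Its docetaxel libraries were also above the DMSO libraries in both genotypes, but only the wild-type rise passed, at 0.37 ± 0.09 log2 units (adjusted p = 0.00691), with 0.19 ± 0.09 (adjusted p = 0.16) in knockout-labelled cells. The difference between those Gclc responses was itself not called (log2 −0.18 ± 0.12, adjusted p = 0.595). Exons of Gclm overlap the antisense gene Gm17494 and the pseudogene Gm6061, and no source used here states the strand setting of the counting, so reads of Gclm and these neighbours cannot be told apart. Gm17494 was listed at 1.04 to 2.03 CPM and Gm6061 at 0 in every library.

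Txnrd1, the cytosolic thioredoxin reductase, had 191, 209 and 194 CPM in KO-DTX libraries, against 167, 141 and 146 CPM in KO-DMSO libraries. In wild-type cells Txnrd1 had 166, 171 and 183 CPM after docetaxel, against 145, 115 and 127 CPM under DMSO. All docetaxel libraries lay above the DMSO libraries of their genotype, with rises of 0.38 ± 0.09 log2 units in knockout-labelled cells (adjusted p = 0.0142) and 0.43 ± 0.10 in wild-type cells (adjusted p = 0.00446). Srxn1, sulfiredoxin, which repairs over-oxidised peroxiredoxins, had 23, 25.1 and 23.9 CPM in KO-DTX libraries, against 22.3, 21.6 and 23.5 CPM in KO-DMSO libraries. Srxn1 had 21.5, 24.2 and 23.2 CPM in WT-DTX libraries, against 22.3, 20.1 and 23.7 CPM in WT-DMSO libraries. Its groups overlapped in both genotypes, and the 95% interval of its log2 change ran from −0.10 to 0.29 in knockout-labelled cells and from −0.14 to 0.26 in wild-type cells.

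Hmox1 encodes heme oxygenase 1, which opens the heme ring, and Nqo1 encodes a quinone reductase that uses NADH or NADPH. Hmox1 had 16, 14.3 and 16.6 CPM in KO-DTX libraries, against 9.75, 11.3 and 10.8 CPM in KO-DMSO libraries. In wild-type cells Hmox1 had 21.3, 24.2 and 25 CPM after docetaxel, against 17.5, 15.7 and 22.4 CPM under DMSO. The knockout-labelled groups were separate and Hmox1 rose there by 0.56 ± 0.13 log2 units (adjusted p = 0.0109), while the wild-type groups overlapped through the third WT-DMSO library and the log2 change of 0.34 ± 0.13 did not pass (adjusted p = 0.0597). Nqo1 had 6.85, 6.13 and 5.13 CPM in KO-DTX libraries, from 300, 213 and 163 reads, against 3.64, 4.2 and 4.05 CPM in KO-DMSO libraries, from 114, 129 and 138 reads. In wild-type cells Nqo1 had 9.23, 9.02 and 9.22 CPM after docetaxel, against 9.28, 10.2 and 8.34 CPM under DMSO. Nqo1 rose by 0.61 ± 0.14 log2 units in knockout-labelled cells (adjusted p = 0.00923), a fold of 1.52, and its wild-type groups overlapped around a log2 change of −0.02 ± 0.13 (adjusted p = 0.944). The KO-DTX level of Nqo1 was still below every wild-type library.

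Slc7a11, G6pdx and Gsr did not pass in either genotype. Slc7a11 encodes the light chain of the cystine-glutamate antiporter, which imports the cystine used for glutathione, and is a target of ATF4 as well as of NRF2. It had 53.3, 24.5 and 29.5 CPM in KO-DTX libraries, against 25, 23.3 and 23.5 CPM in KO-DMSO libraries. In wild-type cells Slc7a11 had 33.2, 18.7 and 24.3 CPM after docetaxel, against 32.3, 33.1 and 21.7 CPM under DMSO. The first KO-DTX library stood far above its group, and the 95% interval of the log2 change was wide, from 0.03 to 1.13 in knockout-labelled cells (0.58 ± 0.26, adjusted p = 0.145) and from −0.75 to 0.36 in wild-type cells (adjusted p = 0.621). Without that library the knockout-labelled change of Slc7a11 was 0.17 (adjusted p = 0.672), and without the second KO-DTX library it was 0.80 (adjusted p = 0.0421). With no filter on low counts the knockout-labelled change of Slc7a11 was 0.585, close to the main value, with a smaller SE of 0.122. It was then called (adjusted p = 4.92e-05), from libraries as scattered as before.

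Gsr had 261, 250 and 238 CPM in KO-DTX libraries, against 269, 259 and 267 CPM in KO-DMSO libraries. In wild-type cells Gsr had 215, 215 and 210 CPM after docetaxel, against 201, 175 and 186 CPM under DMSO. The wild-type groups were separate with docetaxel above DMSO, yet the log2 change of 0.19 ± 0.07 did not pass (adjusted p = 0.0692), and in knockout-labelled cells it was −0.09 ± 0.07 (adjusted p = 0.465). G6pdx had 125, 108 and 116 CPM in KO-DTX libraries, against 130, 112 and 128 CPM in KO-DMSO libraries. In wild-type cells G6pdx had 127, 127 and 133 CPM after docetaxel, against 132, 150 and 121 CPM under DMSO. The groups overlapped in both genotypes. An exon of G6pdx overlaps Ikbkg on the opposite strand, listed at 37.7 to 42.1 CPM, so some of its reads may belong to that gene.

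**Figure D2:**
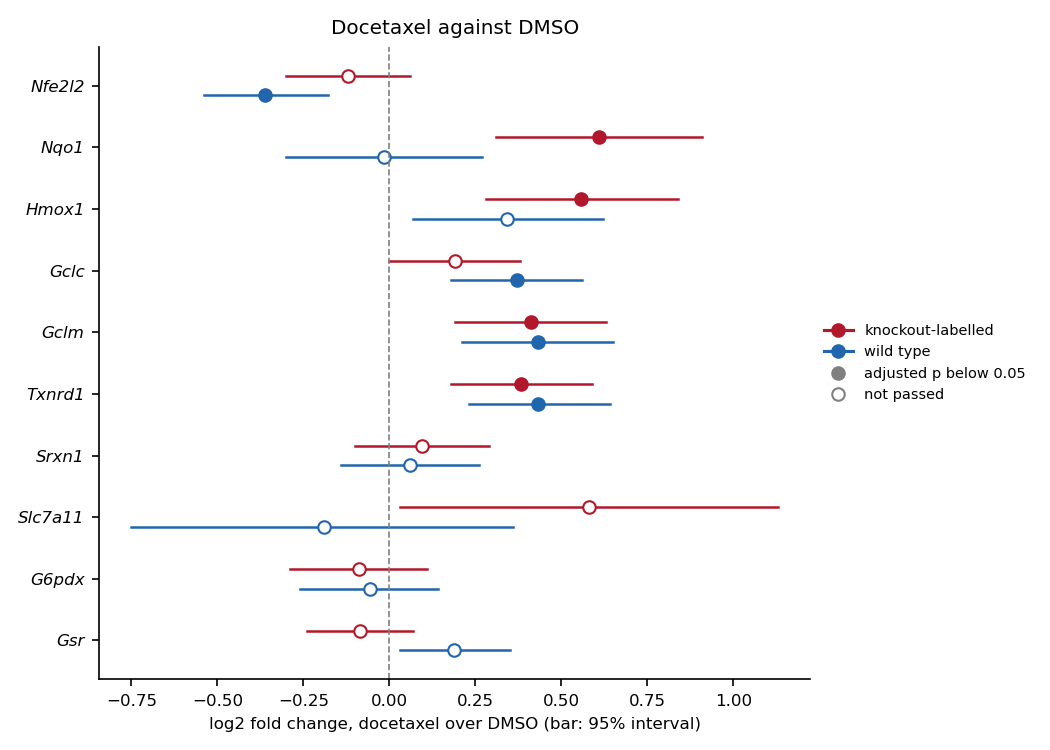
Log2 fold change of docetaxel over DMSO for the 10 genes in knockout-labelled cells (red, upper of each pair) and wild-type cells (blue), with 95% intervals from the edgeR fit; filled points passed an adjusted p of 0.05. Gclm and Txnrd1 were called higher in both genotypes, Nqo1 lay at 0.61 in knockout-labelled cells and at −0.02 in wild-type cells, and Nfe2l2 was called lower in wild-type cells.

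The docetaxel calls of Gclc, Gclm, Txnrd1 and Nfe2l2 in wild-type cells and of Nqo1 in knockout-labelled cells held under all 20 alternative settings. In knockout-labelled cells Gclm missed the threshold without the first KO-DTX library (adjusted p = 0.0661) or the second KO-DMSO library (0.079), Hmox1 without the third KO-DTX library (0.0509), and Txnrd1 without the second (0.0756) or the third (0.064) KO-DMSO library. In wild-type cells Hmox1 passed with DESeq2 (adjusted p = 0.0446), a GC correction (0.0244), a filter of 1 CPM (0.0411), the replicate block (0.0394) or without the third WT-DMSO library (0.0107), and Gsr passed with DESeq2 (0.0346), the GC correction (0.0391), the 1 CPM filter (0.0413) or without the first WT-DMSO library (0.0261).

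The question whether the docetaxel response of a gene differed between the genotypes was tested as an interaction, the knockout-labelled log2 change minus the wild-type one. It was called for none of the 10 genes, beside 0.109% of all tested genes (0.0901% called higher and 0.0193% lower). At an adjusted p below 0.05 DESeq2 also called 0 of the 10, beside 165 of all genes. In edgeR Nqo1 and Gsr had an unadjusted p below 0.05. The share of all tested genes below that threshold was not taken, so these 2 are not set against it. Nqo1 differed by 0.62 ± 0.19 log2 units (unadjusted p = 0.00575, adjusted p = 0.301) and Gsr by −0.28 ± 0.10 (unadjusted p = 0.0188, adjusted p = 0.375). For Gclm the interval of the difference ran from −0.33 to 0.29 log2 units, and for Txnrd1 from −0.34 to 0.24. Slc7a11 differed by 0.77 ± 0.37 log2 units (adjusted p = 0.458), and passed only with no filter on low counts, where the same difference had an SE of 0.172 (adjusted p = 0.00151). A rise that passed in 1 genotype and not in the other, as for Nqo1, Hmox1 and Gclc, is thus not shown to differ between them.

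Between the genotypes the called members differed in direction. In knockout-labelled cells under DMSO, Nqo1, Hmox1 and Gclm were lower and Gsr was higher than in wild-type cells. The 3 of 10 called lower stand beside 9.2% of all tested genes, and the 1 called higher beside 6.6% (15.8% in either direction). After docetaxel the same 3 genes were called lower, beside 3.39% of all tested genes, and Nfe2l2 was called higher, beside 2.5% (5.89% in either direction). Under DMSO all knockout-labelled libraries lay below all wild-type libraries for 3 of the 10 genes and above them for 2, beside 16.9% and 15.7% of all tested genes (32.6% in either direction). After docetaxel this held for 4 below and 4 above, beside 13.2% and 11.9% (25.1% in either direction). The median log2 difference of the 10 genes was −0.046 under DMSO, against 0.011 over all tested genes, and 0.07 after docetaxel, against 0.006.

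Nqo1 showed the largest genotype difference of the 10 under DMSO. Its mean was 3.97 ± 0.29 CPM in KO-DMSO cells and 9.26 ± 0.91 CPM in WT-DMSO cells (SD, n = 3 each), with no overlap between the libraries. The log2 difference was −1.22 ± 0.14 (SE, adjusted p = 4.98e-05), a fold of 0.429. After docetaxel Nqo1 averaged 6.04 ± 0.87 CPM in KO-DTX cells and 9.16 ± 0.12 CPM in WT-DTX cells, again without overlap, with a log2 difference of −0.60 ± 0.13 (adjusted p = 0.0151). From highest to lowest its groups ran WT-DMSO, WT-DTX, KO-DTX and KO-DMSO, and only the wild-type neighbours overlapped.

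Hmox1 averaged 10.6 ± 0.80 CPM in KO-DMSO cells and 18.5 ± 3.46 CPM in WT-DMSO cells, a log2 difference of −0.80 ± 0.13 (adjusted p = 0.00104). After docetaxel Hmox1 averaged 15.6 ± 1.18 CPM in KO-DTX cells and 23.5 ± 1.98 CPM in WT-DTX cells, a log2 difference of −0.59 ± 0.13 (adjusted p = 0.0131). Every knockout-labelled library lay below the wild-type libraries of the same treatment. The levels of KO-DTX and WT-DMSO, its neighbours in the order of the groups, overlapped.

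Of the subunits of glutamate-cysteine ligase, Gclm was called between the genotypes and Gclc was not. Gclm, the modifier subunit, averaged 23.8 ± 1.92 CPM in KO-DMSO cells and 31.4 ± 3.02 CPM in WT-DMSO cells, a log2 difference of −0.40 ± 0.10 (adjusted p = 0.0181). After docetaxel Gclm averaged 31.7 ± 3.13 CPM in KO-DTX cells and 42.3 ± 1.92 CPM in WT-DTX cells, a log2 difference of −0.42 ± 0.10 (adjusted p = 0.0249). Gclc, the catalytic subunit, averaged 31.3 ± 1.65 CPM in KO-DMSO cells and 26.2 ± 2.56 CPM in WT-DMSO cells. Its log2 difference of 0.26 ± 0.09 had separate groups but did not pass (adjusted p = 0.0619), and after docetaxel it was 0.08 ± 0.09 (adjusted p = 0.722).

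Gsr, which returns oxidised glutathione to its reduced form, averaged 265 ± 5.10 CPM in KO-DMSO cells and 187 ± 12.7 CPM in WT-DMSO cells. It was higher by 0.50 ± 0.07 log2 units (adjusted p = 0.000437) and the libraries were separate. After docetaxel Gsr averaged 250 ± 11.3 CPM in KO-DTX cells and 213 ± 3.03 CPM in WT-DTX cells, still separate, with a log2 difference of 0.23 ± 0.07 that did not pass (adjusted p = 0.0932). Gsr thus stood on the other side of 0 from Nqo1, Hmox1 and Gclm under DMSO. Nfe2l2 averaged 126 ± 3.53 CPM in KO-DMSO cells and 120 ± 8.73 CPM in WT-DMSO cells, with overlap and a log2 difference of 0.08 ± 0.08 (adjusted p = 0.6). After docetaxel Nfe2l2 averaged 116 ± 11.9 CPM in KO-DTX cells and 93.2 ± 1.14 CPM in WT-DTX cells and was called higher, by 0.32 ± 0.08 log2 units (adjusted p = 0.041).

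Txnrd1, Srxn1, Slc7a11 and G6pdx did not pass between the genotypes under either treatment. With no filter on low counts Slc7a11 did after docetaxel, at 0.496 with an SE of 0.121 (adjusted p = 0.00206). Txnrd1 averaged 152 ± 13.7 CPM in KO-DMSO cells and 129 ± 14.8 CPM in WT-DMSO cells, and 198 ± 9.54 CPM in KO-DTX cells and 174 ± 8.81 CPM in WT-DTX cells. Its log2 differences were 0.24 ± 0.10 under DMSO (adjusted p = 0.11) and 0.19 ± 0.09 after docetaxel (adjusted p = 0.322). For Srxn1 the 95% intervals ran from −0.17 to 0.22 log2 units under DMSO and from −0.13 to 0.26 after docetaxel. Those of G6pdx ran from −0.32 to 0.08 and from −0.35 to 0.05, and the 3 KO-DTX libraries of G6pdx lay below the WT-DTX ones. For Slc7a11 the intervals were the widest of the 10, from −0.83 to 0.28 under DMSO and from −0.06 to 1.05 after docetaxel.

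**Figure D3:**
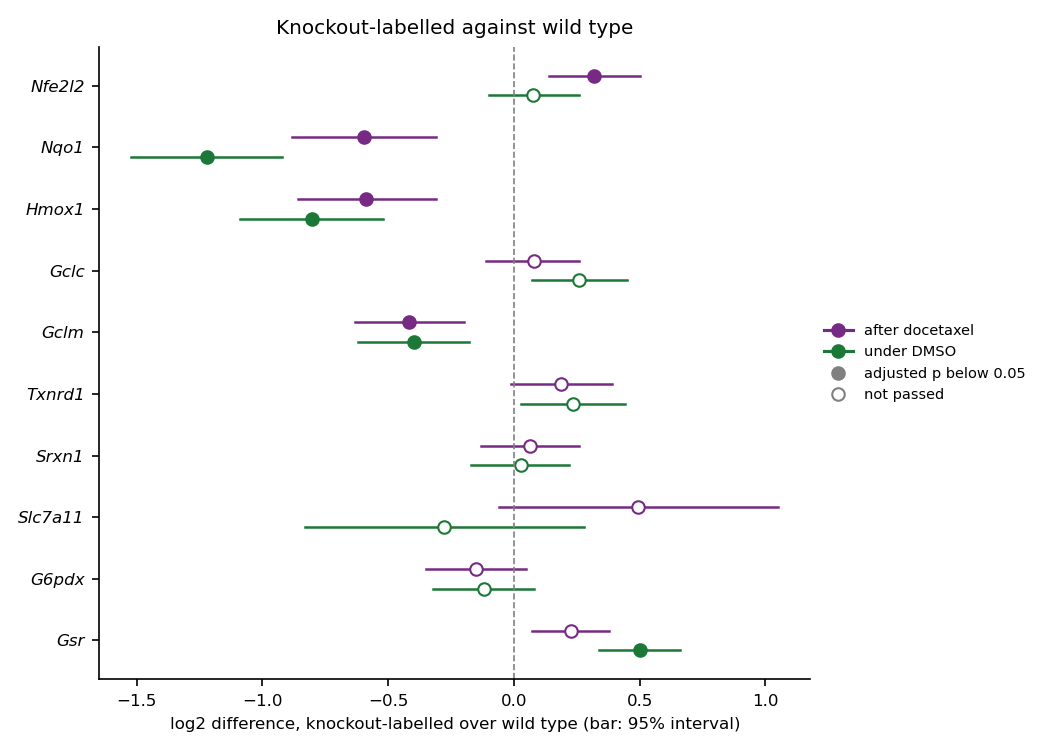
Log2 difference of knockout-labelled over wild-type cells for the 10 genes after docetaxel (purple, upper of each pair) and under DMSO (green), with 95% intervals; filled points passed an adjusted p of 0.05. Nqo1, Hmox1 and Gclm lie left of 0 under both treatments, with Nqo1 at −0.60 after docetaxel and −1.22 under DMSO, and Gsr lies right of 0.

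The DMSO differences of Nqo1, Hmox1 and Gsr were called under all 20 alternatives. Gclm under DMSO was lost without the second (adjusted p = 0.0671) or the third (0.0546) WT-DMSO library, the first (0.0617) or second (0.0799) KO-DMSO library, or without WT-DMSO library 2 and KO-DTX library 3 together (0.0999), while Gclc passed with DESeq2 (0.0373), the GC correction (0.0326) or without the first WT-DMSO library (0.0136), as did Txnrd1 without that library (0.0251). After docetaxel Gsr passed with DESeq2 (0.0143) or the GC correction (0.0377) and Slc7a11 with no filter on low counts (0.00206). Each of the 4 docetaxel calls was lost under some alternatives. Gclm was lost without any 1 of the WT-DTX libraries (0.0534, 0.0691 and 0.122), without WT-DMSO library 2 and KO-DTX library 3 (0.0981) or without the second (0.0937) or the third (0.111) KO-DTX library. Nqo1 was lost without the first (0.0511) or the third (0.0663) WT-DTX library or the third KO-DTX library (0.0897) or without that pair (0.0845), and Hmox1 without the second (0.0569) or the third (0.0759) WT-DTX library or the second KO-DTX library (0.056). Nfe2l2 was lost under 12 of the 20 alternatives, namely the 2 groups alone (0.0723), no filter (0.0595), the replicate block (0.061), that pair left out (0.083), each WT-DTX library in turn (0.0965, 0.133 and 0.127), each KO-DMSO library in turn (0.0634, 0.0704 and 0.0727), and the first (0.132) or the third (0.121) KO-DTX library.

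The comparisons above share libraries: WT-DMSO is the baseline both for docetaxel in wild-type cells and for the genotypes under DMSO, so their values are set side by side and not counted as separate support. The WT-DMSO libraries also had the largest SD of log2 CPM of the 4 groups for 7 of the 10 genes. That of Gsr was 0.097 in WT-DMSO and between 0.021 and 0.065 in the other groups, and that of Hmox1 was 0.261, with 0.11 to 0.124 in the others.

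Counts in the related lists below stand beside the shares of all tested genes. After docetaxel these were 9.09% higher and 7% lower in knockout-labelled cells, and 14.5% and 13.8% in wild-type cells. Between the genotypes they were 6.6% higher and 9.2% lower under DMSO, and 2.5% and 3.39% after docetaxel. The lists were not tested as groups, and a count near its share does not set a list apart. Of 10 regulators of NRF2, none was called after docetaxel in knockout-labelled cells, and Btrc and Bach1 fell in wild-type cells. Between the genotypes Bach1 was the 1 regulator called, under both treatments. Without WT-DMSO library 1, 3 regulators were lower under DMSO and 1 rose in wild-type cells, and without KO-DTX library 1, 1 rose in knockout-labelled cells. The median log2 fold change of the list was 0.116 in knockout-labelled cells, against 0.002 over all tested genes, and 0.043 in wild-type cells, against 0.017. Keap1 had 56.7, 82 and 70.7 CPM in KO-DTX libraries, against 72.1, 74.5 and 71.8 CPM in KO-DMSO libraries, and its log2 change was −0.06 ± 0.14 (adjusted p = 0.806). In wild-type cells that of Keap1 was 0.16 ± 0.14 (adjusted p = 0.408). Btrc, the β-TrCP subunit of a second ubiquitin ligase for NRF2, had 25.2, 26.8 and 26.5 CPM in WT-DTX libraries, against 31.4, 35.2 and 36.2 CPM in WT-DMSO libraries, and fell by 0.39 ± 0.09 log2 units (adjusted p = 0.00451). Bach1, a repressor that competes with NRF2 for the element and is best known at Hmox1, was higher in knockout-labelled cells after docetaxel, with 68.4, 71.4 and 71.7 CPM in KO-DTX libraries against 52.1, 57 and 55.1 CPM in WT-DTX libraries. The log2 difference of Bach1 was 0.37 ± 0.08 (adjusted p = 0.0106), and 0.24 ± 0.08 under DMSO (adjusted p = 0.0459). The Bach1 call after docetaxel was lost without the first WT-DTX library (0.0587) or the third KO-DTX library (0.0562), that under DMSO under 14 of the 20 alternatives (adjusted p up to 0.212), and the wild-type docetaxel fall of Bach1 under 5, among them the omission of WT-DTX library 1 (0.112) or 3 (0.0745) or of WT-DMSO library 3 (0.11).

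Other genes of glutathione metabolism were called in both directions. Of 18 tested genes, 2 rose (Gstm1 and Gstm2) and 2 fell (Mgst3 and Abcc3) in knockout-labelled cells, with a median log2 change of 0.08. In wild-type cells 1 rose (Gsta1, a low count) and 5 fell (Slc3a2, Chac1, Gpx1, Mgst3 and Abcc3), with a median of −0.226. Between the genotypes under DMSO 2 were higher (Gss and Mgst1) and 7 lower (median −0.269), and after docetaxel 2 were higher (Gstm1 and Mgst1) and Gstm2 was lower (median −0.03). Leaving out 1 library moved several of these counts: the rises in knockout-labelled cells came to 1 without KO-DTX library 3 and to 4 without WT-DMSO library 2, the falls in wild-type cells to 9 without WT-DMSO library 1, and the rises there to 2 without WT-DTX library 2 or KO-DTX library 1. The genes higher under DMSO came to 0 without KO-DMSO library 3, and to 1 without WT-DMSO library 2 or 3 or KO-DMSO library 1. Those higher after docetaxel came to 1 without any WT-DTX library, KO-DTX library 3, or KO-DMSO library 2 or 3. Chac1, which degrades glutathione, had 17.3, 21.5 and 22 CPM in WT-DTX libraries, against 40.9, 49.5 and 42.7 CPM in WT-DMSO libraries, and fell by 1.13 ± 0.15 log2 units (adjusted p = 0.000145). Mgst3, a membrane-bound glutathione transferase, fell by 0.82 ± 0.15 log2 units in knockout-labelled cells (adjusted p = 0.00181) and by 1.24 ± 0.15 in wild-type cells (adjusted p = 6.96e-05). Abcc3, an exporter of glutathione conjugates, fell by 0.48 ± 0.10 log2 units in knockout-labelled cells (adjusted p = 0.0056) and by 0.84 ± 0.10 in wild-type cells (adjusted p = 8.76e-05). The largest genotype difference was in Gstm2, a glutathione transferase, with 1.98, 1.73 and 2.14 CPM in KO-DMSO libraries against 21.7, 28.1 and 26.5 CPM in WT-DMSO libraries. Its log2 difference was −3.70 ± 0.15 (adjusted p = 2.65e-09), and its reads may be shared with near-identical Gstm genes. Slc3a2, the heavy chain that partners Slc7a11 and was singled out after its values were seen, had 112, 109 and 102 CPM in KO-DMSO libraries, against 161, 185 and 206 CPM in WT-DMSO libraries. Its log2 difference was −0.77 (adjusted p = 5.27e-05), against −0.28 ± 0.26 for Slc7a11 (adjusted p = 0.524).

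In the thioredoxin and peroxiredoxin system, the cytosolic and the mitochondrial reductase moved in opposite directions. Txnrd1 rose after docetaxel, as above, while Txnrd2, the mitochondrial enzyme, had 18, 19.4 and 19 CPM in KO-DTX libraries, against 25.4, 27.3 and 28.8 CPM in KO-DMSO libraries. In wild-type cells Txnrd2 had 16.3, 18 and 18.3 CPM after docetaxel, against 29, 37.2 and 37.7 CPM under DMSO. It fell by 0.53 ± 0.11 log2 units in knockout-labelled cells (adjusted p = 0.00437) and by 0.98 ± 0.11 in wild-type cells (adjusted p = 4.29e-05). Txnip, an inhibitor of thioredoxin, fell by 1.64 ± 0.27 log2 units in wild-type cells (adjusted p = 0.000761), with −0.66 ± 0.27 in knockout-labelled cells (adjusted p = 0.11). Of the 14 genes of this list, which leaves out the 10 members, Prdx6 rose and Txnrd2 and Prdx2 fell in knockout-labelled cells (median log2 −0.092). In wild-type cells 3 rose (Txn1, Txn2 and Prdx6) and 4 fell (Txnrd2, Txnip, Sesn1 and Sesn2; median −0.078). Between the genotypes under DMSO Txn2 and Sesn3 were higher and Txnrd2, Prdx4 and Sesn2 lower, and after docetaxel Prdx2 was lower. The rise counted in knockout-labelled cells was lost on leaving out any 1 of 8 libraries, the genotype difference after docetaxel likewise, and both higher calls under DMSO on leaving out any 1 of 7. The falls in knockout-labelled cells came to 1 without KO-DTX library 3. Those DMSO calls of Txnrd2, Prdx4 and Sesn2 were lost under 11, 4 and 6 of the 20 alternatives, with adjusted p up to 0.182, 0.112 and 0.103. All of them were lost without WT-DMSO library 2, KO-DMSO library 1, KO-DMSO library 2, or the pair of WT-DMSO library 2 and KO-DTX library 3.

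The list drawn up for NADPH supply held 9 further genes, not all of which encode enzymes that make NADPH themselves. Of these 9, 4 fell (Pgls, Idh1, Idh2 and Nnt) and none rose in knockout-labelled cells, with a median log2 change of −0.319. In wild-type cells 6 fell (the same 4, Tkt and Mthfd2) and 2 rose (Pgd and Taldo1), with a median of −0.391. Between the genotypes Me1 and Mthfd2 were lower under DMSO and none was called after docetaxel. The 4 falls in knockout-labelled cells came to 0 without KO-DMSO library 2, to 1 without KO-DTX library 3 and to 2 without KO-DTX library 1 or KO-DMSO library 1 or 3, and 1 gene rose there without WT-DMSO library 1 or 2 or KO-DTX library 2. In wild-type cells the falls came to 3 without WT-DTX library 3, and the rises to 1 without WT-DTX library 2 or 3, WT-DMSO library 1 or 2, or KO-DTX library 3. Under DMSO 1 gene was lower without WT-DMSO library 2 or any KO-DMSO library, and 1 was higher without WT-DMSO library 1. Mthfd2, a mitochondrial folate enzyme and an ATF4 target, had 39.5, 45.8 and 45.1 CPM in WT-DTX libraries, against 75.7, 70.5 and 72.9 CPM in WT-DMSO libraries, and fell by 0.75 ± 0.09 log2 units (adjusted p = 0.000104). In knockout-labelled cells the log2 change of Mthfd2 was −0.01 ± 0.09 (adjusted p = 0.976). Idh2, the mitochondrial NADP-dependent isocitrate dehydrogenase, fell by 0.51 ± 0.13 log2 units in knockout-labelled cells (adjusted p = 0.0185) and by 0.53 ± 0.13 in wild-type cells (adjusted p = 0.00933). The knockout-labelled Idh2 call was lost without the first (0.0744) or the third (0.0655) KO-DTX library or the first (0.053) or the second (0.0662) KO-DMSO library. The calls of Pgls were lost under 8 alternatives in wild-type cells and under 5 in knockout-labelled cells, and that of Nnt in knockout-labelled cells without KO-DMSO library 2 (0.0775) or 3.

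Of the 10 genes of heme and iron handling, none was called after docetaxel in knockout-labelled cells, and Blvrb and Fech fell in wild-type cells. Between the genotypes Fech was lower under DMSO and none was called after docetaxel. The call of Blvrb was lost without WT-DTX library 1 (adjusted p = 0.122) or 3 (0.0978) or WT-DMSO library 3 (0.143). The median log2 change of the list was −0.19 in knockout-labelled cells and −0.126 in wild-type cells. Fech, ferrochelatase, which inserts iron into protoporphyrin to make heme, fell by 0.40 ± 0.09 log2 units in wild-type cells after docetaxel (adjusted p = 0.00648). Its log2 difference in knockout-labelled cells under DMSO was −0.43 ± 0.09 (adjusted p = 0.00736). That genotype difference of Fech was −0.32 (adjusted p = 0.0559) without WT-DMSO library 2 and KO-DTX library 3. Without WT-DMSO library 1, 2 genes of the list were lower under DMSO, and 1 rose in wild-type cells after docetaxel, as it also did without KO-DTX library 1. In knockout-labelled cells 1 fell without WT-DMSO library 3 or KO-DTX library 2.

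The list drawn up for phase 2 detoxification had 10 tested genes, not all of which encode detoxifying enzymes. Of these 10, Akr1b3 and Aldh3a1 rose and Ugdh fell in knockout-labelled cells (median log2 0.113). In wild-type cells Akr1b3 rose and Ugdh fell (median −0.142). Between the genotypes Ephx1 and Aldh3a1 were higher and Akr1b8, Cyb5r1 and Osgin1 lower under DMSO, and after docetaxel Ephx1 and Aldh3a1 were higher and Akr1b8 lower, a call of Akr1b8 lost under 6 of the 20 alternatives (adjusted p up to 0.11). Without KO-DMSO library 2 no gene of the list fell in knockout-labelled cells, and without that library or KO-DMSO library 3 only 1 was higher under DMSO. The falls in wild-type cells came to 3 without WT-DMSO library 1, to 2 without WT-DTX library 2, WT-DMSO library 2, or KO-DTX library 1 or 2, and to 4 with DESeq2. Akr1b3, aldose reductase, had 90.5, 81.6 and 82.3 CPM in KO-DTX libraries, against 56, 47.8 and 47.1 CPM in KO-DMSO libraries. In wild-type cells Akr1b3 had 88, 87.9 and 96.3 CPM after docetaxel, against 49.2, 39.9 and 38.8 CPM under DMSO. It rose by 0.75 ± 0.10 log2 units in knockout-labelled cells (adjusted p = 0.00023) and by 1.09 ± 0.10 in wild-type cells (adjusted p = 1.3e-05). Akr1b8, another aldo-keto reductase, was lower in knockout-labelled cells under DMSO, with 15.1, 15 and 14.9 CPM in KO-DMSO libraries against 20.3, 23.5 and 26.6 CPM in WT-DMSO libraries (log2 −0.64 ± 0.11, adjusted p = 0.00145). Aldh3a1, an aldehyde dehydrogenase, went the other way, with 35.8, 35.7 and 35.7 CPM in KO-DMSO libraries against 26.4, 29.7 and 28.7 CPM in WT-DMSO libraries (log2 0.34 ± 0.08, adjusted p = 0.0121).

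Of the 3 tested superoxide dismutases and catalase, Sod2 rose in both genotypes and Cat fell in wild-type cells. Sod2, the mitochondrial manganese enzyme, had 85.7, 89.1 and 85.2 CPM in KO-DTX libraries, against 70, 61.1 and 63.5 CPM in KO-DMSO libraries. In wild-type cells Sod2 had 77.6, 82.5 and 83.3 CPM after docetaxel, against 49.2, 45.1 and 49.1 CPM under DMSO. It rose by 0.42 ± 0.08 log2 units in knockout-labelled cells (adjusted p = 0.00236) and by 0.76 ± 0.08 in wild-type cells (adjusted p = 2.18e-05), and under DMSO it was higher in knockout-labelled cells by 0.44 ± 0.08 (adjusted p = 0.00179). Cat, catalase, fell by 0.43 ± 0.08 log2 units in wild-type cells (adjusted p = 0.00184). After docetaxel none of the 3 was called between the genotypes, and without WT-DMSO library 1, 1 was lower under DMSO.

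ATF4 is the factor of the amino acid and integrated stress response, and shares Slc7a11 and other antioxidant genes with NRF2. Of its 12 listed genes, Atf3 rose and Trib3 and Ddit4 fell after docetaxel in knockout-labelled cells (median log2 −0.038), and Atf3 rose and 10 fell in wild-type cells (median −1.075). Between the genotypes 10 were lower and none higher under DMSO (median −0.998), against the same WT-DMSO libraries, and none was called after docetaxel (median −0.179), with 1 lower without WT-DMSO library 2 or 3. Trib3, a pseudokinase induced by ATF4, had 28, 37.3 and 33.8 CPM in WT-DTX libraries, against 91.8, 121 and 175 CPM in WT-DMSO libraries, and fell by 1.97 ± 0.20 log2 units (adjusted p = 1.81e-05). Stc2, a secreted glycoprotein gene, was lower in knockout-labelled cells under DMSO, with 5.37, 4.66 and 4.38 CPM in KO-DMSO libraries against 15.4, 13.1 and 20.2 CPM in WT-DMSO libraries (log2 −1.76 ± 0.18, adjusted p = 1.8e-05). The interaction was called for 2 of the 12, a count that came to 0 without KO-DTX library 3 or KO-DMSO library 3, to 1 without any WT-DTX library or KO-DMSO library 2, and to 8 without WT-DMSO library 1 (7 with no filter, 6 with DESeq2, 4 with the GC correction). The 2 are named here because of that call: Atf4 (log2 0.96 ± 0.14, adjusted p = 0.022) and Asns, asparagine synthetase (log2 1.12 ± 0.14, adjusted p = 0.00856). The knockout-labelled fall of Trib3 was lost without the first KO-DTX library (adjusted p = 0.0633) or the second KO-DMSO library (0.0675).

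**Figure D4:**
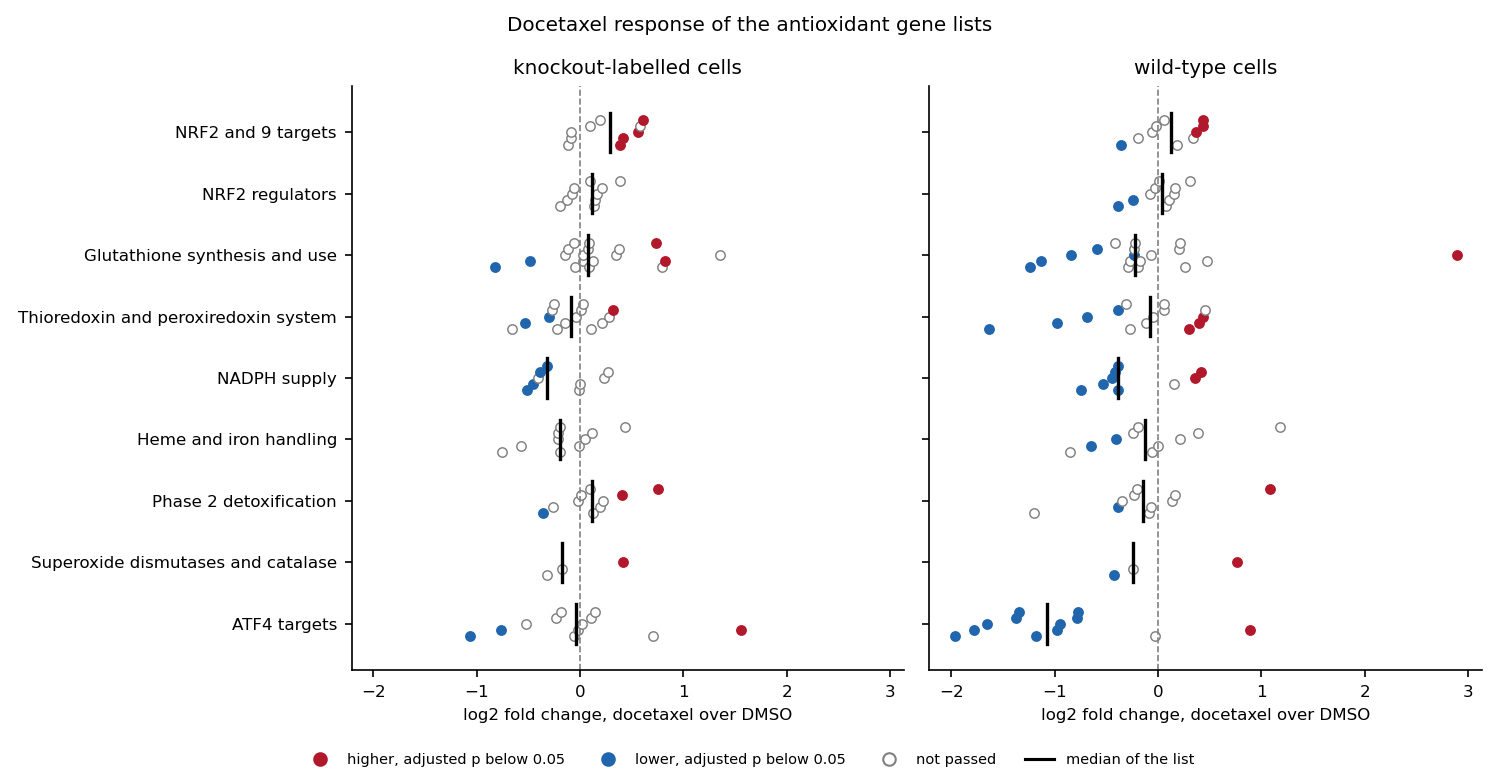
Log2 fold change of docetaxel over DMSO for NRF2 with its 9 targets and 8 related gene lists, in knockout-labelled cells (left) and wild-type cells (right); each point is a gene, filled where the adjusted p was below 0.05, and the black bar is the median of the list. The median of the 10 genes lay at 0.286 in knockout-labelled cells and 0.124 in wild-type cells, and that of the ATF4 list at −0.038 and −1.075.

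The genes whose pattern over the 12 libraries was most like that of each called member were found by Pearson's r of log2 CPM among 9784 protein-coding genes with a mean of at least 5 CPM. The libraries share 4 groups, so r describes mostly the order of the groups. Nfe2l2 was nearest to Sp1 (r = 0.967), Slc44a1 and Rfx3. Nqo1 was nearest to Usp54 (r = 0.985), Mcub and Slc25a37. Hmox1 was nearest to Pip5k1a (r = 0.958), Ctsb and H2-D1. Gclc was nearest to Ddx18 (r = 0.987), Uba2 and Hsp90aa1, while Gclm was nearest to Atp6ap1 (r = 0.981), Ninj1 and Zeb2. Txnrd1 was nearest to Usp39 (r = 0.976), Ppm1g and Limk1, and Gsr to 1700017B05Rik (r = 0.973), Fgfr1 and Efl1. No 2 of the 7 shared a gene among their nearest 3, and none of the 10 genes was among the nearest 3 of another.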

How the data were processed

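Per the labels' protocols, RNA of 12 cultures of 4T1 cells was depleted of ribosomal RNA and sequenced as paired reads. STAR 2.5.1a, featureCounts 1.4.6-p5 (Subread) and bcl2fastq are named in the submitters' processing notes. Build, annotation, strand setting and treatment of multi-mapping reads: not given in the sources used here. What the authors deposited is 1 table of raw read counts by symbol, without normalization. Of 40757 entries, 351 exact repeats (0.907% of counts) were removed. Symbols were matched to GENCODE M21 (GRCm38).

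The tests were run in R 4.3.3 with edgeR 4.0.16: filterByExpr, TMM, 1 mean per group over the 12 libraries, quasi-likelihood tests of 5 contrasts, and Benjamini-Hochberg adjustment over 15538 genes, called at 0.05. SE was obtained as |log2 fold change| over the root of F. The biological coefficient of variation was 13.2%. Libraries held 28.7 to 40.8 mega-counts. Counting error depends on the reads of each gene, and is larger for genes with few, such as Nqo1 with 114 to 138 reads in KO-DMSO libraries. No library was a repeat of another (chi-square per degree of freedom 7.79 to 155 within groups). The fit was also run on simulated counts, drawn independently for each library with the spread estimated here. Such counts hold no outlying library.

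The 10 genes and the lists were chosen with earlier results of these data known. Named genes were the 10 members, Itgb3, up to 4 called genes per list with the largest change and a mean of at least 5 CPM, and the 3 genes most like each called member; Slc3a2, Atf4, Asns and the list genes named without values were chosen after their values were seen. Alternatives were DESeq2 1.42.0, RLE scaling, no filter, at least 1 CPM in 3 libraries, the 2 groups alone, the replicate number as a block, each library left out, a lowess GC correction (span 0.3) and the omission of WT-DMSO library 2 and KO-DTX library 3 together. Figures were drawn with matplotlib 3.10.9.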

Additional observations from a re-analysis of the deposited data

How the results depend on the processing

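Values under other settings follow, with the cause of each change not tested. Same-numbered deviations from the group means correlated at −0.399 to 0.677, and in no comparison above 0.1 for every number. Between the genotypes after docetaxel they correlated at 0.677 for number 1, 0.452 for number 2 and −0.022 for number 3. Deviations from a mean of 3 libraries sum to 0, so these values cannot decide whether the numbers pair libraries. With the replicate block, the genes called for the interaction came to 48 against 17, and the members higher in knockout-labelled than in wild-type cells after docetaxel to 0 against 1. All genes called in that genotype comparison came to 943 with the block, against 915. With no filter the interaction had 421 genes and 1 member higher; it had 39 with the GC correction, 165 with DESeq2 and 4 without WT-DMSO library 2 and KO-DTX library 3 together. Members higher after docetaxel in wild-type cells came to 5 with the 1 CPM filter, the GC correction or DESeq2, against 3. All genes called there in either direction came to 4364, 5368 and 4935 under these settings, against 4406. Members higher between genotypes came to 2 with the GC correction or DESeq2 under each treatment, against 1. After docetaxel they came to 0 with the 2 groups alone or without that pair. All genes called between genotypes under DMSO came to 3194 with the GC correction and 3059 with DESeq2, against 2454. After docetaxel all genes called came to 1334 and 1350, against 915, and to 845 with the 2 groups alone. Without that pair 1 member was lower after docetaxel, against 3, and 1267 genes differed under DMSO, against 2454, and 565 after docetaxel, against 915. Leaving out each library in turn gave these ranges: genes called, docetaxel in knockout-labelled cells 1311 to 2881, genotypes under DMSO 1264 to 3273, after docetaxel 467 to 1083, interaction 2 to 431, the highest without the first WT-DMSO library; members higher, docetaxel in knockout-labelled cells 2 to 5, genotypes under DMSO 1 to 3, after docetaxel 0 to 1; members lower after docetaxel 0 to 3. Some uncalled values near 0 changed sign. With the GC correction the Srxn1 difference under DMSO was −0.009 and the G6pdx interaction 0.014. Without WT-DMSO library 2 and KO-DTX library 3 the wild-type docetaxel changes of Nqo1, Srxn1 and G6pdx were 0.055, −0.001 and 0.030, the Srxn1 difference under DMSO −0.033 and the Txnrd1 interaction 0.048. Without single libraries the wild-type docetaxel changes ran from −0.088 to 0.055 for Nqo1, from −0.001 to 0.112 for Srxn1 and from −0.131 to 0.030 for G6pdx. Differences under DMSO ran from −0.036 to 0.078 for Srxn1 and from −0.091 to 0.036 for Itgb3. Interactions ran from −0.117 to 0.043 for G6pdx, from −0.101 to 0.056 for Gclm, from −0.017 to 0.096 for Srxn1 and from −0.139 to 0.027 for Txnrd1.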
